A study of Homo sapiens with 8 samples.

Results

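The genes described here are MEIS1, PBX3, PBX2, HOXA5, HOXA7, HOXA9, HOXA10 and MEF2C, the transcription factor genes of the HOXA and MEIS1 leukaemia programme. The rule takes them by name and uses no measured value, but the members were chosen with earlier results of these data known. All 8 were found by symbol among the 11530 genes of the deposited table. RNA was sequenced from MonoMac 6, an established human line from an acute monocytic leukaemia, in 4 libraries with 100 ng/mL of the human cytokine APRIL (TNFSF13) for 24 h and 4 control libraries without it. Per the labels, treated cells were in RPMI without serum, the line was grown in 10% serum, and baseline cytokines that are not named were in the medium of both groups. The serum in the control medium is not given, so APRIL and serum removal cannot be told apart. All libraries come from 1 line, and the labels do not say that they are separate cultures, so the p-values below measure the spread between these libraries.

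HOXA proteins are homeodomain factors that bind DNA together with partners of the TALE class, the PBX and MEIS proteins. In blood, HOXA9 and MEIS1 are active in stem and progenitor cells and are turned down as cells mature. Fusions of the histone methyltransferase MLL (KMT2A) hold both genes on, and MonoMac 6 is known to carry the fusion of KMT2A with MLLT3. PBX3 is the PBX protein most often tied to MLL leukaemias, and MEF2C is a MADS-box factor that is likewise raised by MLL fusions.

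The sequences before the start sites of MEIS1, HOXA9 and PBX3 are shown because these genes stand for the 3 kinds of factor in the complex, and because binding sequences of the complex can be looked for in them. They are the 250 bases upstream of the RefSeq start site (build GRCh38.p14), 5' to 3' on the strand of the gene, at chr2:66434875-66435124 (plus strand, MEIS1), chr7:27165538-27165787 (minus strand, HOXA9) and chr9:125747933-125748182 (plus strand, PBX3). Capitals mark matches, on either strand, to TGACAG (bound by MEIS proteins), TGATTTAC (bound by HOXA9 with a PBX protein) and CCAAT (the CCAAT box).
MEIS1: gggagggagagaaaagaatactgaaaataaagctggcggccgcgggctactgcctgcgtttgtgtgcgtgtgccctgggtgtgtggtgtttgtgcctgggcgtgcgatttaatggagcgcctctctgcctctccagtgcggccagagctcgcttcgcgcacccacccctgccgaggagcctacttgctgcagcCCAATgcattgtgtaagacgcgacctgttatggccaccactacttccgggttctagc
HOXA9: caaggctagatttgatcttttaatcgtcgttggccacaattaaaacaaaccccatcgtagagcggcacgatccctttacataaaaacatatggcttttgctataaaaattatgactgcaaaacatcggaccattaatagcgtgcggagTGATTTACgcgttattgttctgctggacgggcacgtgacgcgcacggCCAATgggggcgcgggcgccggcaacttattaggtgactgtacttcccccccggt
PBX3: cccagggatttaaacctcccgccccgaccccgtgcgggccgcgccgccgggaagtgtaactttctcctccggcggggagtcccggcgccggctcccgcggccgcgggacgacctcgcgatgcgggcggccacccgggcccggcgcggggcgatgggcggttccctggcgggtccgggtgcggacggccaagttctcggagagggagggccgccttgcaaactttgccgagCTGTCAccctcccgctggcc
HOXA9 has TGATTTAC at 102 bases before its start site, letters that 0.555% of 35116 such windows hold on either strand. It also has CCAAT at 55 bases before the start, as has MEIS1 at 57 bases, and 11240 of the 35116 windows hold that motif. The window of PBX3 has TGACAG on the opposite strand, found in 4577 of the 35116 windows. The MEF2 box was searched too and was in none of the windows of these genes and in 2.36% of all windows. RefSeq windows were matched for 7 of the 8 genes, 14 windows in all, and HOXA5 had none. Of the genes not shown, MEF2C had TGACAG and CCAAT in some of its windows, HOXA7 and HOXA10 had CCAAT, and PBX2 had no match. The motifs were chosen after the sequences were seen, so these shares are descriptions. A match is a run of letters and not a shown binding site, and these data hold no measure of binding.

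None of the 8 genes passed the threshold between APRIL and control, and MEIS1 was the 1 gene whose groups did not overlap. MEIS1 was lower with APRIL in every library (a fold of 0.804), HOXA9 and PBX2 were within 0.01 log2 units of control, and the other genes differed by 0.069 to 0.25 with intervals that include 0. The test was limma across 11257 genes, with Benjamini-Hochberg adjustment over all of them and a threshold of 0.05. Of the 8 genes 0 were called, and 0% of all genes tested were called (smallest adjusted p in limma = 0.400). At an unadjusted p under 0.05 there was 1 of the 8, MEIS1, against 11.9% of all genes (5.69% lower and 6.25% higher with APRIL). Groups that did not overlap were seen in 1 of the 8, with APRIL below, against 7.81% of all genes, 4.19% with APRIL below. Changes were negative in 4 of the 8 genes and positive in 4, with a median of -0.077, and 50.7% of all genes had a negative change around a median of -0.0053. At an unadjusted p under 0.05 in limma, 0 of the 8 genes stood against 8.28% of all genes with length and GC trends removed. MEIS1 was the 1 of 8 in 3 other fits, against 9.28% without APRIL column 3, 7.52% without APRIL column 3 and control column 1, and 10.6% with voom. With library quality weights MEIS1 and HOXA7 were the 2 of 8, against 17% of all genes, and 0 of the 8 passed the adjusted threshold against 0.0355% of all genes.

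The values are log2 values after scaling by the authors, and a change is APRIL minus control on that scale with its standard error from limma. The whole reads behind 10993 of the 11530 genes were recovered from the values, all 8 genes among them. These reads came to between 837589 (APRIL column 3) and 4839885 (APRIL column 2) per library, a 5.78-fold range. The columns of the table carry the group and no replicate number, so libraries are named by column order within their group, and values below run from column 1 to 4. APRIL column 3 was the shallowest library and stood apart from the others, with a limma quality weight of 0.117 against 0.316 to 5.46 for the rest. Across 10359 genes the change with APRIL went with transcript length (Spearman's rho = -0.54) and GC content (rho = 0.51). Genes are not independent replicates. Of 11 markers of monocytic leukaemia 10 were in the table, all but CD68. They included LYZ, MPO, CD33 and SPI1, and the 9 with recovered reads summed to 844 to 961 reads per 1000000 with APRIL and 893 to 946 in control. Of 7 T cell and NK cell markers 1 was in the table, and of 7 erythroid and megakaryocyte markers and 9 fibroblast, epithelial and endothelial markers 0 were. In bulk RNA, fewer cells that express a gene and less of its RNA per cell cannot be told apart.

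**Figure D1:**
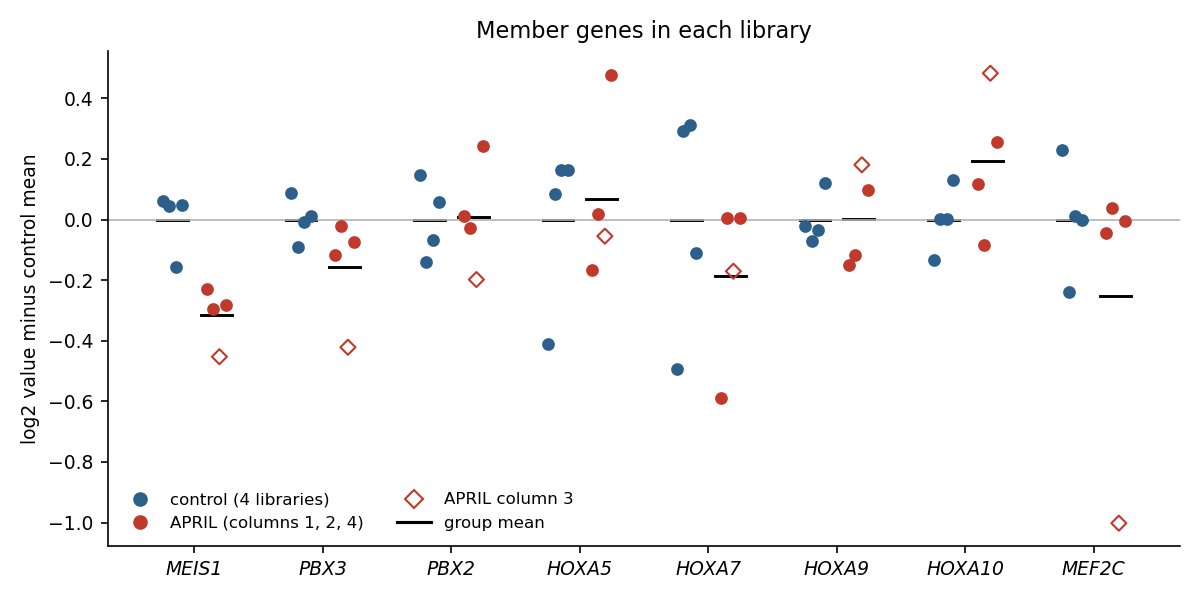
Log2 value of each gene in each of the 8 libraries, minus the mean of the 4 control libraries of that gene, with group means as black bars and APRIL column 3 as an open diamond. For MEIS1 the 4 APRIL libraries all lie below the 4 control libraries, and for the other genes the groups overlap.

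MEIS1 encodes the homeodomain partner that stabilises HOXA9 and PBX on DNA and is needed for the growth of many MLL leukaemias. Its log2 values were 7.37, 7.31, 7.15 and 7.32 across the APRIL columns, and 7.67, 7.65, 7.45 and 7.65 across the control columns. The highest APRIL library lay below the lowest control library, which was control column 3. The means were 7.29 ± 0.10 (SD, n = 4) with APRIL and 7.60 ± 0.10 (SD, n = 4) in control. The change was -0.31 ± 0.11, with a 95% interval of -0.57 to -0.061. In limma this gave an unadjusted p of 0.0201 and an adjusted p of 0.400, which does not pass. Relabeling the 8 libraries in an exact permutation test (two-sided) gave p = 0.0286, the smallest that 70 relabelings can give. The authors' deposited table lists MEIS1 with a p-value of 0.00447 and a fold of 0.804.

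MEIS1 had more reads than the median gene in every library, where that median ran from 39 to 247 reads, but counting error still matters there. The reads of MEIS1 numbered 167, 301, 42 and 179 across the APRIL columns, and 148, 97, 115 and 211 across the control columns. Counting error alone at these numbers comes to an SD of 0.14 log2 units with APRIL and 0.13 in control, so the observed SDs of 0.10 are no larger than counting error. Leaving out each library in turn gave changes of -0.37 to -0.27 for MEIS1, and -0.27 was the value without APRIL column 3. Without control column 4 the unadjusted p was 0.0539.
Once the length and GC trends of the libraries were taken out, the change of MEIS1 was -0.12 (limma, unadjusted p = 0.213). The longest annotated transcript of MEIS1 has 5111 bases and 41.7% GC, and the fitted trends alone differed by -0.19 between APRIL and control at that length and GC content. At MEIS1 these trends were lowest in APRIL column 3 (-0.27) and highest in control column 1 (+0.28). Without those 2 libraries the change was -0.25.

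Ratios of reads within a library do not depend on how libraries were scaled. There were 0.65, 0.72, 0.43 and 0.57 MEIS1 reads per HOXA10 read across the APRIL columns, and 0.95, 0.86, 0.75 and 0.79 across the control columns. The APRIL ratios all lay below the control ratios, and so they did against PBX2. MEIS1 reads per PBX2 read averaged 0.469 ± 0.042 (SD, n = 4) in the APRIL group and 0.587 ± 0.053 in the control group. Against HOXA9 the APRIL group averaged 0.466 ± 0.077 (SD, n = 4) and the control group 0.576 ± 0.046. There APRIL column 1, at 0.544, lay above control column 3, at 0.528, so the groups overlapped. They also overlapped against PBX3, HOXA5, HOXA7 and MEF2C. The ratios still hold the trends with length and GC content, which differed between APRIL and control by -0.19 at MEIS1, +0.083 at PBX2 and +0.14 at HOXA10. With the trends removed the changes of these genes were -0.12, -0.076 and +0.053, closer to each other than before. These ratios were formed after the values were seen and are given as a description.

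PBX3 encodes the PBX homeodomain protein that joins HOXA9 and MEIS1 in MLL leukaemia cells. Its log2 values were 6.10, 6.20, 5.79 and 6.14 across the APRIL columns, and 6.30, 6.13, 6.21 and 6.23 across the control columns. APRIL column 3 was the lowest library, and the other 3 APRIL libraries lay within or just below the control range. The change was -0.16 ± 0.13 with a 95% interval of -0.45 to 0.13, and it was -0.070 without APRIL column 3. PBX3 had the most reads of the 8 genes, 205 to 1726 per library, where counting error comes to an SD of 0.06 and the observed SD was 0.18 with APRIL.

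PBX2, a widely expressed relative of PBX3, differed little between the groups. Its log2 values were 6.55, 6.51, 6.34 and 6.78 across the APRIL columns, and 6.69, 6.40, 6.47 and 6.60 across the control columns. The APRIL group held both the lowest and the highest library. The change was 0.0071 ± 0.13 with a 95% interval of -0.29 to 0.31, so these libraries allow a difference anywhere inside that interval. PBX2P1, a processed pseudogene of PBX2 with near-identical sequence, is also in the table and can share its reads, so the values of both are uncertain. PBX2 was at -0.076 with the trends removed. PBX2P1 differed by -0.14 ± 0.19, by +0.028 without APRIL column 3 and by -0.54 with the trends removed (limma, unadjusted p = 0.0878).

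HOXA9, the homeodomain factor at the centre of the programme, had the most even level of the HOXA genes. Its log2 values were 4.64, 4.67, 4.96 and 4.88 across the APRIL columns, and 4.76, 4.71, 4.75 and 4.91 across the control columns. APRIL columns 1 and 2 lay below every control library, column 3 above every one and column 4 among them. The change was 0.0034 ± 0.13, with a 95% interval of -0.29 to 0.30. The sign of a change this small was not fixed: centring each library on its median gave -0.0058, and removing the trends with length and GC content gave -0.095.

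HOXA10, the neighbour of HOXA9 in the cluster and a regulator of myeloid progenitors, had the largest positive change of the 8 genes. Its log2 values were 7.27, 7.07, 7.63 and 7.41 across the APRIL columns, and 7.02, 7.15, 7.15 and 7.28 across the control columns. APRIL columns 3 and 4 were above every control library, and columns 1 and 2 lay among the controls. The change was +0.19 ± 0.14 (95% interval -0.12 to 0.51), and it was +0.053 with the trends removed and +0.097 when APRIL column 3 was left out. HOXA9 and HOXA10 share transcribed sequence in the annotation through a read-through transcript, and the library kit named in the labels keeps no strand, so the reads of HOXA10 and of its antisense gene HOXA10-AS cannot be separated. There were 1.27 ± 0.11 (SD, n = 4) HOXA9 reads per HOXA10 read with APRIL and 1.45 ± 0.08 in control, and these groups overlapped.

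HOXA5 and HOXA7, which lie on the other side of HOXA9 in the cluster, had the fewest reads. HOXA5 had 51, 110, 16 and 89 reads across the APRIL columns, and 31, 29, 42 and 67 across the control columns. Its log2 values ran from 1.11 to 1.75 with APRIL and from 0.861 to 1.44 in control, a change of +0.069 ± 0.22, or -0.11 with the trends removed. HOXA7 had 26, 75, 10 and 44 reads across the APRIL columns, and 20, 23, 32 and 38 across the control columns. Its values, -0.57 to 0.026 with APRIL and -0.48 to 0.33 in control, gave a change of -0.19 ± 0.26. It was -0.39 with the trends removed and -0.053 without APRIL column 1. HOXA7 lay at the edge of the filter on low values, with 4 of 8 libraries at or above a linear value of 1, the fewest that the filter lets pass. In both genes counting error, an SD of 0.23 to 0.30, is about as large as the observed spread of 0.28 to 0.38. The 95% intervals, ±0.48 around the change for HOXA5 and ±0.57 for HOXA7, allow changes anywhere inside them. HOXA-AS3, an antisense gene, overlaps an exon of HOXA7, so its reads could not be separated either, and the same holds for MEIS1 with MEIS1-AS2 and MEF2C with MEF2C-AS1 and MEF2C-AS2.

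MEF2C, a MADS-box factor of myeloid progenitors, stood out through 1 library. Its log2 values were 5.69, 5.77, 4.73 and 5.73 across the APRIL columns, and 5.96, 5.49, 5.74 and 5.73 across the control columns. Only APRIL column 3 lay outside the control range, and it rested on 24 reads where the other libraries had 67 to 320. The change was -0.25 ± 0.23 (95% interval -0.77 to 0.27), and it was -0.0034 without APRIL column 3. With the trends removed it was +0.029. MEF2C has the longest annotated transcript of the 8 genes, 7561 bases, and the lowest GC content, 39.0%.

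**Figure D2:**
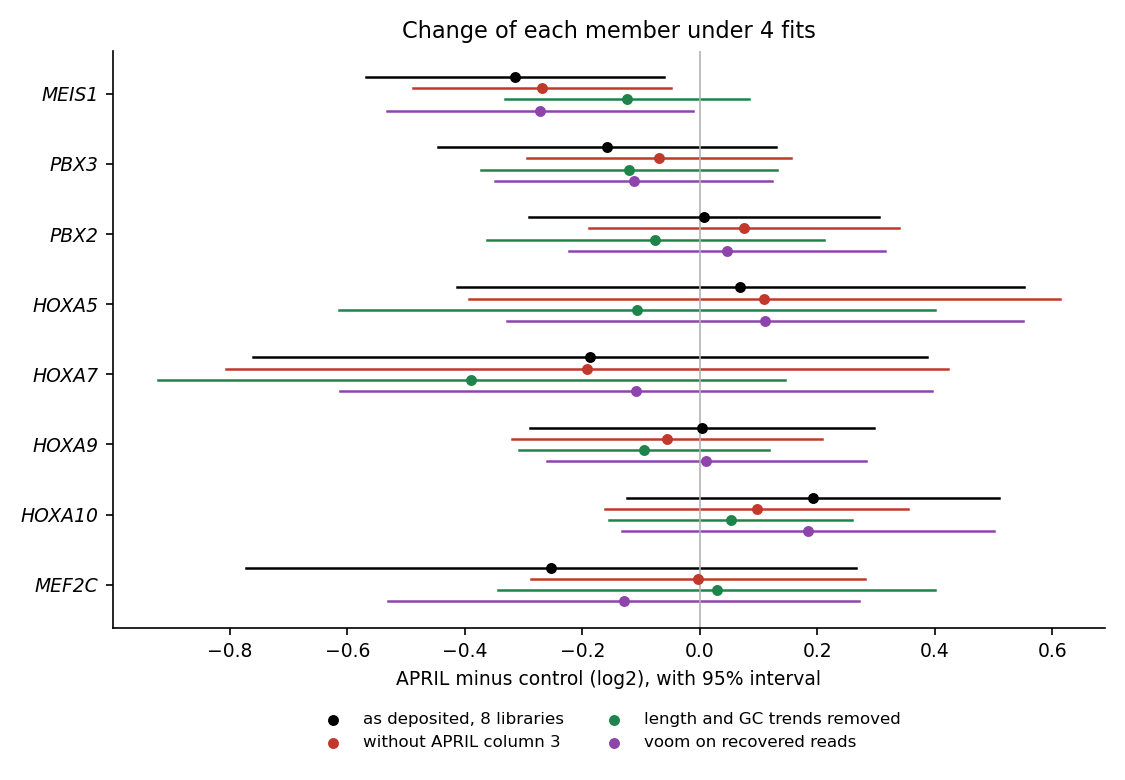
Change of each gene (APRIL minus control, log2) with its 95% interval under 4 fits: the deposited values of 8 libraries, the same without APRIL column 3, with the length and GC trends taken out, and voom on the recovered reads. Of the 4 intervals of MEIS1, the one with the trends removed includes 0, and every interval of the other genes includes 0.

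The levels of the 8 genes were compared per length. The level, in reads per 1000000 recovered reads per kilobase of the longest annotated transcript, was highest for PBX3, at 124 ± 6 (SD, n = 4) in control and 110 ± 17 (SD, n = 4) with APRIL. HOXA9 followed at 63.9 ± 4.1 in control and 62.9 ± 5.1 with APRIL. PBX2 (40.4 ± 3.6 in control) and HOXA10 (35.8 ± 2.8) came next, and their control ranges of 36.5 to 44.5 and 32.5 to 39.3 overlapped. MEIS1 (14.8 ± 1.0 in control, 11.7 ± 1.3 with APRIL) and HOXA5 (13.5 ± 2.4 in control) were neighbours with overlapping ranges. MEF2C (8.48 ± 1.13 in control) and HOXA7 (7.69 ± 1.92) were the lowest and overlapped as well. Neighbouring pairs on this scale apart from these 3 did not overlap in control, except that HOXA5, at 9.96 in control column 1, nearly met MEF2C at 9.86.
The order depends on the length taken. Over the 8671 bases of all annotated exons together MEIS1 stood at 8.73 in control, near HOXA7 and near MEF2C at 7.42. The order also differs from that of the deposited values, where MEIS1 was the highest of the 8 genes in control (7.60) and PBX3 stood below it at 6.22. The deposited values hold a whole-number divisor per gene, 260 for MEIS1, 3218 for PBX3, 427 for HOXA10 and 10136 for HOXA7. Across 10073 genes that divisor did not follow transcript length (Spearman's rho = -0.0015), so deposited levels are not comparable between genes. A difference between libraries within a gene is not touched by it. The filter on low values and the intensity trend in limma used the deposited values, so both hold the divisor, as does the place of HOXA7 at the filter.

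**Figure D3:**
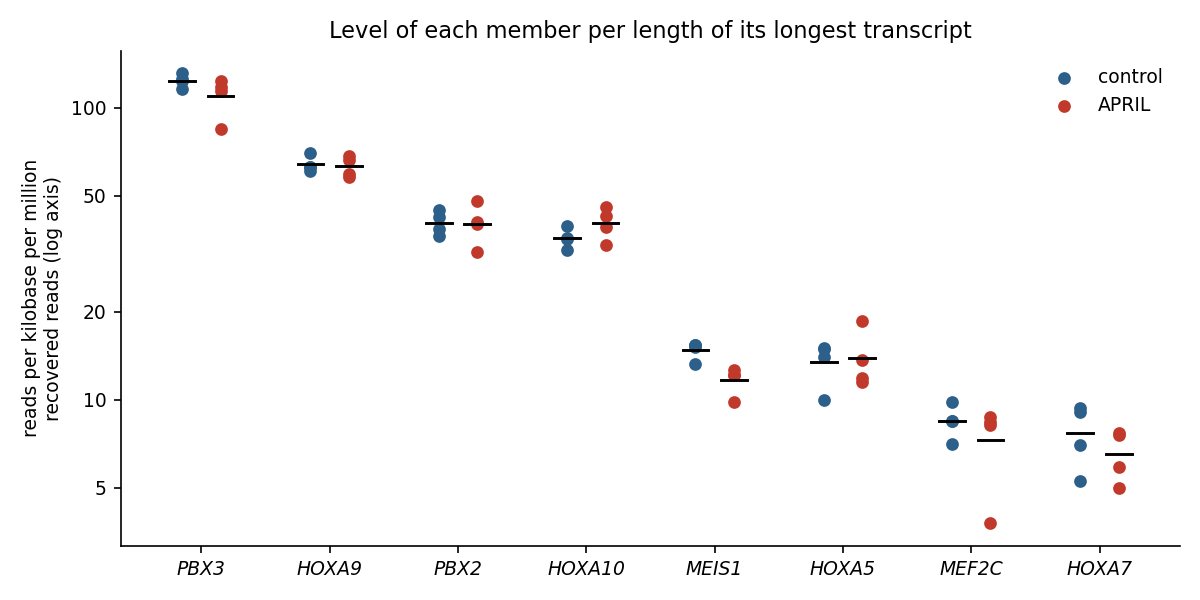
Level of each gene in reads per 1000000 recovered reads per kilobase of its longest transcript (log axis), 4 control and 4 APRIL libraries per gene with the mean as a bar, in the order of the control means. PBX3 and HOXA9 are the highest and HOXA7 and MEF2C the lowest.

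Pairs of the 8 genes differed in how alike they were over the 8 libraries, which share depth and quality differences, so the values are descriptions. Pearson's r was 0.97 for PBX3 with MEF2C, 0.73 for HOXA9 with HOXA10, 0.72 for MEIS1 with PBX3 and -0.86 for PBX3 with HOXA10. MEIS1 and HOXA9 gave r = -0.20. Without APRIL column 3 these were 0.80, 0.52, 0.48, -0.58 and 0.28, in the same order. The genes most like MEIS1 over 8 libraries were EIF2AK3, a kinase of the unfolded protein response (r = 0.98), KIAA1024 and PPIP5K1 (0.97 and 0.96), and GPBP1L1 and WDR52 (0.95 each). For HOXA9 they were the protease gene BLMH (r = 0.94), the histone gene HIST2H2BE (0.93), the phosphatase gene DUSP1 and DRAM1 (0.92 each) and LAMP5 (0.91). In all 33 genes had r over 0.9 with MEIS1 and 6 with HOXA9.

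Of the 11 genes of the HOXA cluster 9 were tested. Of the 9, 0 passed the threshold and 0 had an unadjusted p under 0.05 in limma, against 0% and 11.9% of all genes. Changes were positive in 4 and negative in 5, and the median was -0.13 (-0.056 without APRIL column 3). HOXA13, at the late end of the cluster, differed by -0.30 ± 0.18, or -0.13 with the trends removed. HOXA11 gave +0.14 ± 0.18, or -0.046 with the trends removed. None of the 28 genes of the HOXB, HOXC and HOXD clusters was in the table, and their levels were not analysed here.

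Of 18 TALE homeobox genes 9 were tested, 4 with a positive and 5 with a negative change (median -0.11). None passed, and 1, MEIS1, had an unadjusted p under 0.05, against 11.9% of all genes. MEIS2, the nearest relative of MEIS1, differed by -0.38 ± 0.20 from 3.53 ± 0.25 (SD, n = 4) in control, and its groups overlapped. It was at -0.23 when APRIL column 3 was left out, at -0.12 when control column 1 was left out as well, and at -0.20 with the trends removed. IRX3 differed by +0.20 ± 0.16, and by -0.14 with the trends removed. PKNOX1, TGIF1 and TGIF2 were tested as well and lay between -0.15 and 0.10.

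Of the MEF2 factors, the class IIa deacetylases that hold them silent and the SIK kinases that free them, 10 of 11 genes were tested. Changes were positive in 2 and negative in 8 (median -0.11, or -0.022 without APRIL column 3), where 50.7% of all genes had a negative change. Of the 10, 0 passed and 0 had an unadjusted p under 0.05 in limma, against 0% and 11.9% of all genes. MEF2A, the MEF2 factor with the largest change, gave -0.30 ± 0.15 and the deacetylase HDAC5 gave +0.30 ± 0.17. SIK2 and SIK3 differed by -0.26 ± 0.17 and -0.24 ± 0.16. With the trends removed MEF2A was at -0.075, HDAC5 at +0.19, SIK2 at -0.051 and SIK3 at -0.11. When APRIL column 3 was left out MEF2A was at -0.17, SIK2 at -0.12 and SIK3 at -0.16.

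All 29 genes of MLL, menin and the elongation machinery that MLL fusions recruit were tested. Changes were positive in 7 and negative in 22 (median -0.13), where 50.7% of all genes had a negative change. Of the 29, none passed in limma, and 5 had an unadjusted p under 0.05, all with lower values with APRIL, against 5.69% of all genes. PSIP1, which encodes LEDGF, the protein that ties MLL and menin to chromatin, averaged 7.27 ± 0.39 (SD, n = 4) in the APRIL group and 7.82 ± 0.27 in the control group. Its change was -0.55 ± 0.21, and its groups did not overlap. AFF4 and AFF1, scaffolds of the super elongation complex, gave -0.43 ± 0.17 and -0.36 ± 0.16. CCNT1, the cyclin of the P-TEFb kinase, gave -0.39 ± 0.17, and the fifth gene was RTF1, a subunit of the PAF complex, at -0.29. In this list 4 genes had APRIL values wholly below control, PSIP1 among them, against 4.19% of all genes. The groups of AFF4, AFF1 and CCNT1 overlapped. Without APRIL column 3 the median was -0.061, and with the trends removed it was -0.060, where AFF4 was at -0.14, AFF1 at -0.11 and CCNT1 at -0.14. PSIP1 was at -0.37 without APRIL column 3 and at -0.44 with the trends removed, and at -0.24 without APRIL column 3 and control column 1. KMT2A itself differed by -0.46 ± 0.24 and MLLT3 by -0.089 ± 0.22. Neither is reported here with the trends removed or without APRIL column 3. Reads of the fusion transcript can count toward either gene.

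Of 24 genes listed as targets or partners of HOXA9 and MEIS1 in leukaemia, 17 were tested, 8 with a positive and 9 with a negative change (median -0.15). None passed in limma, and 2 had an unadjusted p under 0.05, against 11.9% of all genes. Groups did not overlap in 2, ZEB2 and FLT3, against 7.81% of all genes. ZEB2, a zinc finger transcription repressor, averaged 11.8 in the APRIL group and 12.2 in the control group, with a change of -0.37 ± 0.13. RUNX1 and the demethylase gene JMJD1C differed by -0.26 ± 0.12 and -0.51 ± 0.23. FLT3, a receptor kinase gene raised along with MEIS1 in leukaemia, differed by -0.24 ± 0.13. MYB gave -0.15 ± 0.11 and MYC 0.0058 ± 0.15. Without APRIL column 3 the median was -0.081 and with the trends removed it was -0.058, where ZEB2 was at -0.056, RUNX1 at -0.064, JMJD1C at -0.21 and FLT3 at -0.13. When APRIL column 3 was left out JMJD1C was at -0.33 and FLT3 at -0.14.

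Genes of monocyte maturation, which rise where the HOXA programme falls, did not move one way. Of 13 tested genes 7 changes were positive and 6 negative (median +0.090, or -0.13 with the trends removed). Of the 13, 0 passed and 0 had an unadjusted p under 0.05 in limma, against 0% and 11.9% of all genes. The endotoxin co-receptor CD14 differed by +0.60 ± 0.30, from 2.19 ± 0.51 (SD, n = 4) in control. CD163, a scavenger receptor, gave -0.45 ± 0.23, CD36 gave -0.30 ± 0.18 and CD86 -0.33 ± 0.21, and the groups of these 4 genes overlapped. In 1 of the 13 tested genes the groups did not overlap, with APRIL above, against 7.81% of all genes (3.62% with APRIL above). With the trends removed CD14 was at +0.31, CD163 at -0.28, CD36 at -0.032 and CD86 at -0.31. When APRIL column 3 was left out CD14 was at +0.44, CD163 at -0.22, CD36 at -0.23 and CD86 at -0.17.

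**Figure D4:**
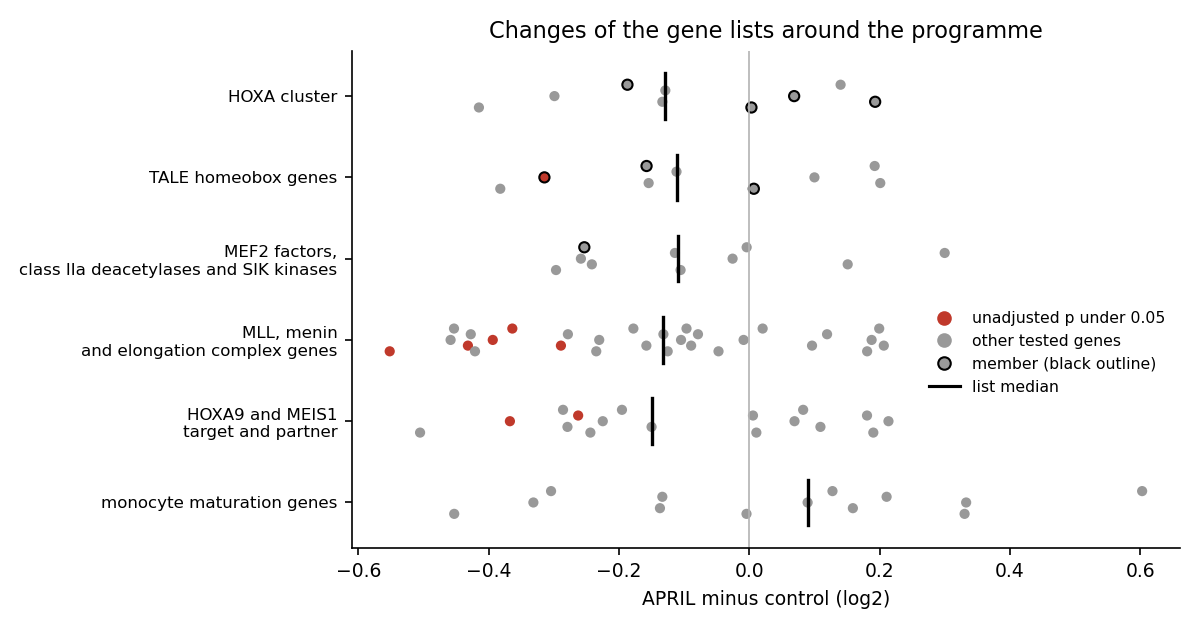
Change of each tested gene (APRIL minus control, log2) in the 6 lists with at least 5 tested genes, with the list median as a bar, genes at an unadjusted p under 0.05 in red and members of the programme outlined. The red points all have a negative change, against 5.69% of all genes lower and 6.25% higher at that p, and no gene passed the adjusted threshold. With the trends removed MEIS1, AFF4, AFF1, CCNT1, ZEB2 and RUNX1 had an unadjusted p of 0.185 to 0.427 in limma. PSIP1 stayed under 0.05 in that fit (limma, unadjusted p = 0.0376), where 8.28% of all genes were under 0.05. RTF1 is not reported for that fit.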

How the data were processed

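The authors deposited 1 table with a log2 value per gene and library, scaled by TMM (trimmed mean of M-values) per the file headers. It also holds the authors' p-value and linear fold per gene, per the file headers. Per the submitters' processing notes TopHat2 2.0.13, bcl2fastq and build hg19 were used. For the read counter, annotation and gene filter, nothing was given in the sources used here.

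The 11257 of 11530 genes whose linear value reached 1 in 4 or more libraries were tested with limma 3.58.1 in R 4.3.3, with intensity trend and robust empirical Bayes, two-sided, with Benjamini-Hochberg adjustment. Whole reads were taken as recovered where all 8 values fitted log2 of reads plus 0.5 over 1 whole-number divisor, with a chance expectation under 0.001. With library constants moved, 0 of 500 genes were recovered. Recovery and fit were tested on simulated data. Lengths and GC content came from GENCODE 29 (10584 symbols matched), promoter sequences from RefSeq (GRCh38.p14). Splines removed the length and GC trends of each library.

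The members and gene lists were chosen with earlier results of these data known, and the motifs after the sequences were seen. Named genes were the 8 members, up to 4 genes per list with the smallest p, and the 5 genes most correlated with MEIS1 and with HOXA9. RTF1, KMT2A, MLLT3, MYB, MYC, PKNOX1, TGIF1 and TGIF2 were named after their values were seen. All 8 columns of values were used. Some genes of the lists are not reported here. Other steps ran in Python 3.11.15 (scipy 1.17.1, pandas 2.3.3, numpy 2.4.6).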

Additional observations from a re-analysis of the deposited data

Results flagged for a closer look

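In 7 of the 60 groups of 4 libraries formed by the 30 genes named from the list rule, 1 library lay apart from the other 3 by more of the group's range than Dixon's 95% critical value allows. Chance gives about 1 in 20 such groups, and these groups share libraries. Control column 1 was that library in 3 of the 7 and APRIL column 3 in 1. MEF2C was lowest in APRIL column 3, at 4.73. HOXA5 was lowest in control column 1, at 0.861, and JMJD1C (4.45) and FLT3 (12.5) were highest there. MEIS1 was lowest among the controls in control column 3, at 7.45, the control library nearest to the APRIL values. SIK3 was lowest among the controls in control column 4, at 3.43, and IRX3 was highest among the APRIL libraries in APRIL column 4, at 6.93.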

How the results depend on the processing

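No paired analysis was possible because the columns of the table carry no replicate number. Under 18 alternatives the count of the 8 genes past the adjusted threshold was 0 each time in limma, and MEIS1 had a negative change each time, with an adjusted p of 0.195 to 0.654 and an unadjusted p of 0.0100 to 0.213. Over all genes 0 were called, except 4 with library quality weights. The median change of the 8 genes, -0.077 as reported, was 0.0034 when a linear value of 1 or more was asked of all 8 libraries, which leaves out HOXA7. The cause of the sign changes below was not tested. With library medians centred HOXA9 was at -0.0058 and PBX2 at -0.0021, and HOXA9 was at -0.0012 with quantile normalization. With quality weights HOXA5 was at -0.16, HOXA9 at -0.13, PBX2P1 at +0.0099 and CD86 at +0.015, and HOXA7 was at -0.48 with an unadjusted p of 0.0482 in limma. With length and GC trends removed PBX2 was at -0.076, HOXA5 at -0.11, HOXA9 at -0.095, MEF2C at +0.029, HOXA11 at -0.046 and IRX3 at -0.14. Without APRIL column 3 and control column 1, a pair chosen after seeing the data, HOXA5 was at -0.027, HOXA9 at -0.062 and MEF2C at +0.073. Leaving out each library gave -0.068 to 0.15 for HOXA5, -0.056 to 0.054 for HOXA9, -0.072 to 0.075 for PBX2 and -0.22 to 0.028 for PBX2P1. HOXA5, HOXA7 and MEF2C had the fewest reads of the 8 genes in APRIL column 3, at 16, 10 and 24. For MEF2C the observed SD with APRIL was 0.50, where counting error comes to 0.17, and the cause of that spread was not tested.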
